A study of Drosophila melanogaster with 4 samples.

Results

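The occupancy of RNA polymerase II was measured by ChIP-seq (chromatin immunoprecipitation with sequencing) in the Drosophila melanogaster line Kc167, labelled as embryo-derived, female and of genotype se/e. The regions described here are the polymerase-enriched regions of chromosome 4 and of the 6 heterochromatin scaffolds (2LHet, 2RHet, 3LHet, 3RHet, XHet and YHet). They were taken from the list deposited for the whole series by their sequence name, as regions not typed as depleted. There were 217 of them among 5288 enriched regions: 67 on chromosome 4 and 150 on the heterochromatin scaffolds. Of the latter, 67 lay on 3LHet, 45 on 2RHet, 16 on 3RHet, 8 on XHet, 8 on YHet and 6 on 2LHet. None of the 3 deposited lists had a region typed as depleted on these sequences. Such regions were few over all sequences: 91 in the series list, 17 in that of ChIP replicate 1 and 21 in that of ChIP replicate 2.

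Both ChIP libraries, replicates 1 and 2, were made with ab5408, an antibody labelled as directed against the repeat of the polymerase's carboxy-terminal domain. Both input libraries have no region list and were not analysed here. All 4 samples came from the one line, and the labels name no treatment. The labels do not say if the replicates were separate cultures, so their spread may be technical. The lists hold no read counts, so the depth of the libraries is unknown.

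RNA polymerase II transcribes protein-coding genes, and the heptad repeats of its largest subunit are modified as it moves from initiation to elongation. Chromosome 4, the dot chromosome of the fly, carries active genes within chromatin that bears heterochromatin proteins such as HP1a. It is also bound along its length by POF, a protein named for this property. Among its genes, in the RefSeq table of Release 6, are ci, ey, toy, pan and zfh2, which encode developmental transcription factors. Pericentric heterochromatin is rich in satellite repeats and transposons, yet it holds genes that need this environment for normal expression, with light and rolled as the classic examples. The coordinates of the lists are those of FlyBase release 5. No annotation or genome of that release was used here, so no gene or sequence is assigned to a region.

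Chromosome 4 was covered by polymerase regions to about the same extent as the major arms, and the heterochromatin scaffolds were covered far less. In the replicate lists, chromosome 4 had 55 regions in replicate 1 and 57 in replicate 2, which covered 14.5% and 15.0% of its 1.35 Mb. The major arms (2L, 2R, 3L, 3R and X together) were covered over 15.6% and 15.9%. The heterochromatin scaffolds had 112 and 111 regions, which covered 3.72% of their 9.28 Mb in each replicate. Per Mb of full sequence length, chromosome 4 had 3.37 times as many regions as the scaffolds in replicate 1 (exact 95% interval 2.40 to 4.70) and 3.53 times in replicate 2 (2.52 to 4.90). These intervals cover counting error only and treat regions as independent. The mean ratio was 3.45 ± 0.11 (SD, n = 2). Without 3LHet, the scaffold with the most regions, it was 5.41, and it was 2.85 without 2RHet and 2.75 without 3RHet. Single scaffolds differed widely. XHet had 29.4 and 39.2 regions per Mb in replicates 1 and 2, from 6 and 8 regions, which covered 8.08% and 8.62% of it. On 3RHet there were 3.57 and 3.97 regions per Mb, and on chromosome 4 there were 40.7 and 42.2. The part of each scaffold to which reads could be assigned is unknown, so the ratio does not compare amounts of polymerase.

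Counted per gene, chromosome 4 had more regions than any of the large arms. The RefSeq table of Release 6 lists 80 protein-coding genes on chromosome 4 and 13842 on the major arms. The series list thus held 83.8 regions for every 100 protein-coding genes of chromosome 4, against 35.8 on the major arms together. Among single arms the figure ran from 31.9 on 3R to 42.7 on X. This ratio sets regions of one release beside gene counts of another, and a region may lie across several genes or none. It is given with no test. It also counts series regions, of which 20.9% on chromosome 4 and 8.60% on the major arms overlapped no region of either replicate list. Counted per Mb of full sequence length, the 2 were closer: the series list held 49.6 regions on chromosome 4 and 41.6 on the major arms.

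The regions of chromosome 4 ranged in the series list from 1001 to 12466 bp, with a median of 2969 bp. Their scores ranged from 0.23 to 2.57 with a median of 1.00. The score is the authors' single value per region and is read here on a log2 scale; which quantities form its ratio is not stated. Regions above a score of 2 made up 10.4% of those on chromosome 4, against 22.4% on the major arms. Those over 10 kb made up 5.97%, against 6.86%. In the replicate lists the highest scores of chromosome 4 were 2.62 and 2.57, against 4.49 and 4.44 on the major arms. Score and width rose together (Spearman rho 0.75) across the 67 regions, which share their library and are not independent replicates.

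The strongest region of chromosome 4 was also its widest, from 923756 to 936221 (12.5 kb). Its scores in replicates 1 and 2 were 2.62 and 2.57, the series list gave it 2.57, and 1 unbroken region covered 98.5% and 99.0% of it in the replicates. The region from 84568 to 88853 scored 2.44 and 2.38 in replicates 1 and 2. Directly after it, a second region from 88955 to 91611 scored 1.79 and 1.81. This pair of neighbours was separated in all 3 lists.

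Other strong regions were spread from 198532 to 1146393. That from 574808 to 580404 scored 2.44 in replicate 1 and 2.36 in replicate 2, and that from 715015 to 717747 scored 2.23 and 2.26. The region from 1045447 to 1056641 (11.2 kb) scored 2.17 and 2.25. In each of these the replicates differed by less than 0.1, well within the range of scores between regions. The region from 198532 to 205075 scored 2.31 and 2.33, and the replicate regions covered only 76.5% and 74.8% of it. Scores were 2.00 and 2.11 from 521363 to 523629, and 2.00 and 1.96 from 327690 to 337191 (9.50 kb). The region from 1142535 to 1146393, with 1.79 and 1.80, completed the 10 highest. All 10 were found in both replicates.

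**Figure D1:**
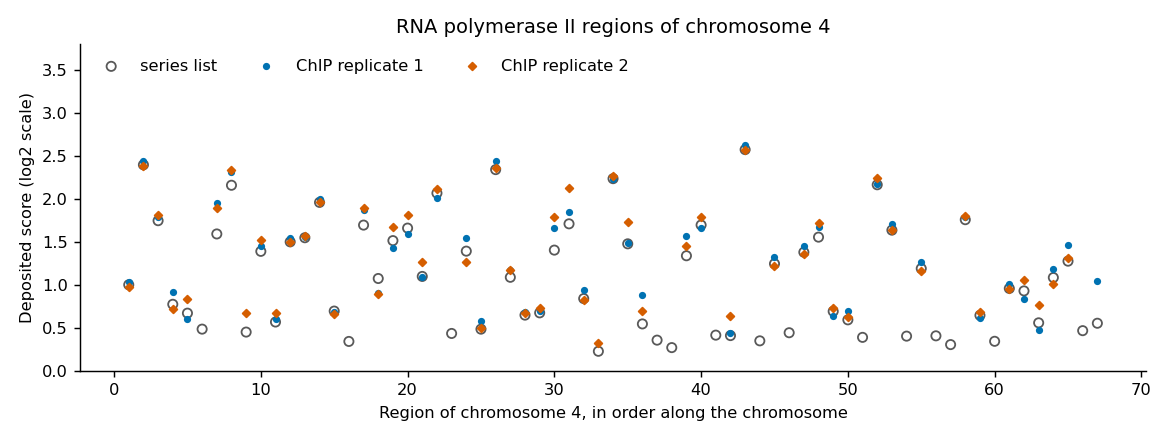
Scores of the 67 regions of chromosome 4 (y axis, log2 scale) in their order along the chromosome (x axis), in the series list (open circles), ChIP replicate 1 (blue) and ChIP replicate 2 (orange diamonds); where several replicate regions overlap a series region, that with the greatest overlap is shown. The 10 highest series scores lie from 84568 to 1146393, and the circles with no replicate point all lie below a score of 0.5.

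Besides the unbroken wide regions above, 2 of the 5 widest were split in each replicate list. The region from 674547 to 685576 (11.0 kb) was met by 2 regions in each replicate, the larger scoring 1.66 and 1.79, against 1.40 for the whole in the series list. That from 148260 to 158337 (10.1 kb) was also met by 2 regions in each, the larger scoring 1.96 and 1.89, against 1.59 in the series list. In all, 4 of the 51 supported regions of chromosome 4 were split in replicate 1 and 5 of 52 in replicate 2.

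Polymerase coverage changed severalfold over short distances of chromosome 4. Over 13 whole bins of 100 kb, the median coverage was 15.1%. The lowest value was 3.70 ± 0.21% (SD, n = 2) from 1100001 to 1200000, and the highest was 25.4 ± 1.1% in the neighbouring bin from 1000001 to 1100000. Coverage of 22.1 ± 0.56% was measured from 900001 to 1000000, and 5.96 ± 1.00% from 700001 to 800000. The differences between these bins were larger than those between the replicates. The longest stretches without a series region were from 232208 to 327689 (95.5 kb), from 717748 to 806188 (88.4 kb) and from 383540 to 463199 (79.7 kb), and neither replicate had a region in them. At the other extreme, 5 neighbouring regions lay within 24.7 kb from 1210688 to 1235377, with scores of 0.34 to 1.08 in the series list. The next tightest runs of 5, within 27.1 kb and 29.0 kb, overlapped each other between 198532 and 232207.

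Most regions of chromosome 4 were found again in both replicates, though a smaller share than over the whole series list. Those found in neither were all weak. A series region is called supported where an enriched region of the replicate overlaps it by at least 1 bp. How the list of the series was made is not stated; it may derive from both libraries, so support is given as a description and not as independent evidence. Of all 5288 series regions, 84.7% were supported in both replicates, 87.1% in replicate 1 and 87.6% in replicate 2; 5.3% were supported in 1 alone and 10.0% in neither. On chromosome 4, 50 of 67 (74.6%, exact 95% interval 62.5 to 84.5) were supported in both, with 51 in replicate 1 and 52 in replicate 2, while 3 had support in 1 replicate alone and 14 in neither (20.9%). On the major arms 86.4% were supported in both and 8.60% in neither. All 34 regions of chromosome 4 with a score above 1 were supported in both replicates, close to the 3086 of 3222 over the whole series list.

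The 14 regions of chromosome 4 without support in either replicate scored between 0.27 and 0.48. The highest of them lay from 144666 to 146178 (0.48), 1285936 to 1287383 (0.47), 970993 to 972258 (0.44), 527563 to 529586 (0.43) and 903648 to 905039 (0.41). Their median width was 1401 bp, against 3390.5 bp for those supported in both. The narrowest enriched region of the replicate lists measured 1301 bp, and 5 of the 14 were narrower than that, so they could not have matched a replicate region of their own size. The like counts of unsupported regions were higher as a share elsewhere: 24 of 39 in heterochromatin, 254 of 426 on the major arms and 307 of 530 over the whole series list. The 3 lowest scores of chromosome 4 belonged to the regions from 711024 to 712460 (0.23), 874525 to 875999 (0.27) and 1141154 to 1142362 (0.30), of which the first had support in replicate 2 alone. Support in 1 replicate alone was also seen from 205115 to 207441, which scored 0.67 in replicate 2, and from 1322872 to 1324387, which scored 1.04 in replicate 1 and 0.55 in the series list.

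The heterochromatin scaffolds were supported less evenly. Of their 150 regions, 96 (64.0%, exact 95% interval 55.8 to 71.7) had support in both replicates, with 103 in replicate 1 and 104 in replicate 2. The share was 10.6 percentage points lower than on chromosome 4, with a two-sided Fisher's exact p over regions of 0.159. This p and those that follow take regions as independent draws, which they are not. They are therefore likely too small, describe these lists alone and carry no verdict. The scaffolds did not behave alike, and the difference turned on which were counted. By the same exact test it was 3.20 points without 2RHet (p = 0.727) and 21.6 points without 3LHet (p = 0.00703). With every list, the replicate lists included, cut at its own median score over all sequences, it was 27.1 points (24 of 27 against 34 of 55, exact test, p = 0.0187). Matches that fell under a replicate list's cut were lost there, so this value does not describe support in the full lists. On 3LHet, 52 of 67 regions (77.6%, interval 65.8 to 86.9) were supported in both, a share close to that of chromosome 4. On 2RHet it was 21 of 45 (46.7%, interval 31.7 to 62.1), and on 3RHet 8 of 16. The small scaffolds had 5 of 6 on 2LHet, 6 of 8 on XHet and 4 of 8 on YHet.

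**Figure D2:**
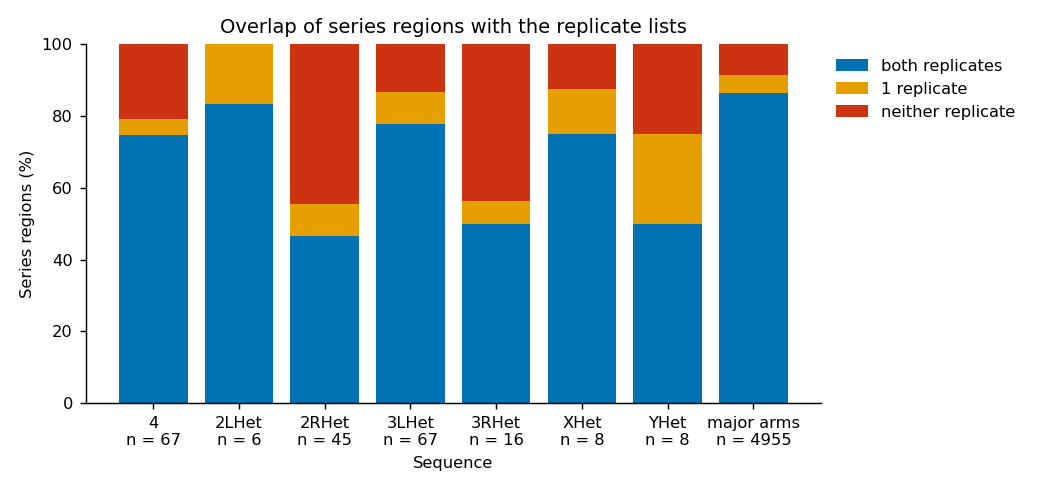
Share of series regions (y axis, %) overlapped by an enriched region of both replicates (blue), of 1 replicate (yellow) or of neither (red), on chromosome 4, each heterochromatin scaffold and the major arms (x axis, with the number of regions). The blue part is 86.4% on the major arms, 74.6% on chromosome 4 and 77.6% on 3LHet, against 46.7% on 2RHet and 50.0% on 3RHet and YHet.

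Unsupported regions of heterochromatin, unlike those of chromosome 4, included strong ones. Of the 39 without support in either replicate, 12 scored above 1 and 7 above 2, whereas none of the 14 on chromosome 4 scored above 0.48. Strong unsupported regions were not particular to heterochromatin: on the major arms 63 of 426 unsupported regions scored above 1 and 25 above 2. Among all regions above a score of 1, 52 of 65 in heterochromatin were supported in both, against 2960 of 3028 on the major arms. The strongest unsupported region of heterochromatin lay on YHet from 227229 to 228339, with 2.81. It was followed by 2RHet from 690507 to 691514 (2.72), from 368029 to 369064 (2.64) and from 3241320 to 3242455 (2.22), and by 3LHet from 670643 to 671715 (2.14). These are scores of the series list, since neither replicate list has a region there.

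These strong unsupported regions were narrow. Of the 12, 10 were narrower than the 1301 bp of the narrowest replicate region. The 2 wider ones lay on 3LHet from 665971 to 667852 (1882 bp, score 1.72) and on 3RHet from 1746485 to 1747950 (1466 bp, score 1.10). Most such regions were narrow elsewhere too. Of the unsupported regions above a score of 1, 16 of 63 on the major arms and 39 of 118 over the whole series list measured 1301 bp or more. In 9 of the 12 the score occurred exactly in another enriched region of the series list. Exactly repeated scores were found in 6 of 67 regions of chromosome 4 (8.96%) and in 15 of 150 of heterochromatin (10.0%), against 2.91% on the major arms. Of the 6 and 15, 5 and 13 had no support in either replicate, against 77 of 144 on the major arms. The score of the YHet region above was shared with 7 other regions, 5 of them on the major arms and 2 on U, a scaffold of unplaced sequence. What part the width limit of the replicate lists or the repeated scores play in the missing support was not tested. When series regions under 1301 bp were left out, support in both replicates was 76.8% in heterochromatin and 80.6% on chromosome 4, a difference of 3.85 points.

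**Figure D3:**
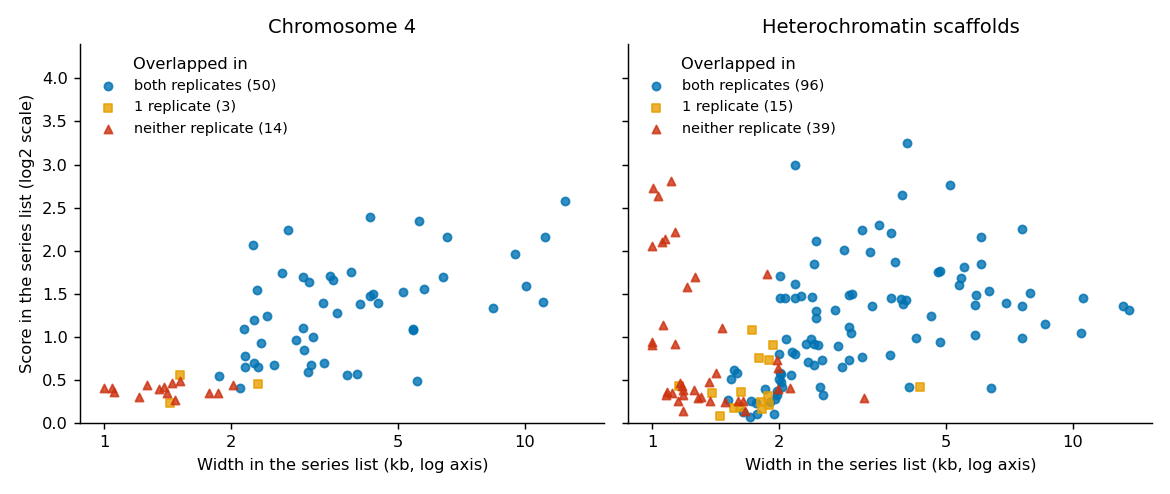
Score in the series list (y axis, log2 scale) against width (x axis, kb, log axis) for the regions of chromosome 4 (left) and of the heterochromatin scaffolds (right), by support in both replicates (blue circles), 1 replicate (yellow squares) or neither (red triangles). On chromosome 4 the red triangles all lie below 0.5, and in heterochromatin 12 of 39 lie above 1, 10 of these being narrower than 1301 bp.

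Taken over the 6 scaffolds together, regions of heterochromatin had lower scores and were narrower than those of chromosome 4 in both replicate lists. The median score was 1.01 in heterochromatin against 1.32 on chromosome 4 in replicate 1, and 1.09 against 1.27 in replicate 2. The difference was 0.25 ± 0.09 (SD, n = 2). It was 0.026 without 3LHet, and -0.022 when each list was limited to scores at its median or higher, a limit that by itself narrows a difference of scores. The median width was 2334 bp against 2926 bp in replicate 1 and 2320 bp against 2942 bp in replicate 2, a ratio of 1.26 ± 0.01. Single scaffolds went the other way: median scores were 1.46 and 1.35 on 2LHet and 1.57 and 1.53 on YHet, and median widths were 3090 and 3380 bp on 3RHet, all above chromosome 4. An exact sign-flip test over 2 libraries cannot give a two-sided p below 0.5, so no test over samples was made.

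The highest score of heterochromatin exceeded every score of chromosome 4. It lay on 3LHet from 2210283 to 2214329, with 3.26 in replicate 1 and 3.29 in replicate 2. Of all enriched series regions, 98.5% scored lower. Also higher than the chromosome 4 maximum in both replicates were another pair on 3LHet: that from 2396719 to 2401827 scored 2.84 and 2.76, and that from 571083 to 573272 scored 2.71 and 3.13. The replicates differed more in the last than in the others. The widest region of the scaffolds, on 3LHet from 1129272 to 1142855 (13.6 kb), was met by 3 regions in replicate 1 and 1 in replicate 2.

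On 2RHet, regions gathered near both ends of the scaffold. Replicate regions covered 5.75 ± 0.22% of its first 500 kb and 4.55 ± 1.03% of the bin from 2500001 to 3000000 (SD, n = 2), and 0 of the bins from 1500001 to 2500000. A stretch of 914 kb, from 1668240 to 2582136, had no region in any list. The strongest 2RHet region with support lay from 3177216 to 3184773 (7.56 kb), scoring 2.27 and 2.22. The widest lay from 332973 to 343572 (10.6 kb), scoring 1.38 and 1.53. In the series list many scores were low: 24 of 45 regions lay under 0.5, against 18 of 67 on chromosome 4. Of the 45, 20 had no support in either replicate. In the replicate lists the median score of 2RHet was 0.93 in replicate 1 and 1.29 in replicate 2. On chromosome 4 it was 1.32 and 1.27. One region of replicate 2, from 3119736 to 3121329 with a score of 0.46, was missing from the series list.

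On 3RHet most regions lay in 1 part of the scaffold. Of its 16 regions, 11 lay from 1500001 to 2000000, and stretches of 911 kb, from 792719 to 1703369, and 610 kb, from 177149 to 786676, had none in any list. Between these stretches stood a single region, from 786677 to 792718, which scored 2.20 in replicate 1 and 2.38 in the larger of 2 regions in replicate 2. The highest score belonged to the region from 1703370 to 1707071, with 2.25 and 2.20. The third, from 176092 to 177148 (2.10), had no support in either replicate. The widest, from 1805250 to 1815688 (10.4 kb), scored 1.09 and 1.10.

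On 3LHet regions were more evenly spread. From 500001 to 2500000, its bins of 500 kb were covered over 6.29% to 9.81%, with 12 to 18 series regions each, and the first bin was covered over 1.17 ± 0.0064% (SD, n = 2). The median score of 3LHet was 0.96 and 1.00 in replicates 1 and 2. It carried 23.5 regions per Mb in each replicate, between 7.45 ± 1.08 on 2RHet and 41.4 ± 1.0 on chromosome 4 (SD, n = 2).

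**Figure D4:**
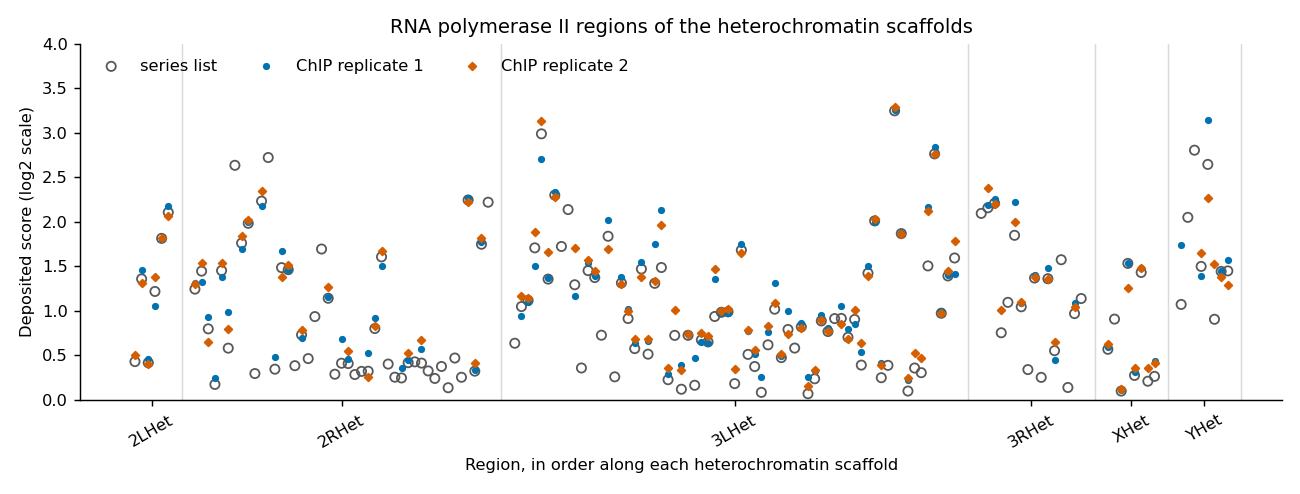
Scores of the 150 heterochromatin regions (y axis, log2 scale) in order along each scaffold (x axis, scaffolds separated by grey lines), in the series list (open circles), ChIP replicate 1 (blue) and ChIP replicate 2 (orange diamonds). Circles above 2 without a replicate point are seen on 2RHet, 3LHet, 3RHet and YHet; the highest point with both replicates is on 3LHet, at 3.26 and 3.29.

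The small scaffolds differed among themselves. On 2LHet the region from 197892 to 200350 scored 2.18 and 2.07 and that from 166657 to 172182 scored 1.81 and 1.82. Its widest and third-highest, from 29809 to 37391, scored 1.46 and 1.31. On XHet scores were low, with a median of 0.52 in each replicate. Its highest region, from 56357 to 62697, scored 1.54 in replicate 1 and was met by 2 regions in replicate 2, the one with the greatest overlap scoring 1.26 and the other 2.13. The region from 74247 to 78154 scored 1.48 in both, and that from 40194 to 41194 (0.91) had no support. All 8 XHet regions ended at or before position 85967, and the last 118 kb had none.

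YHet, a Y chromosome scaffold, carried 8 series regions although the line is labelled female. Each replicate had 5 regions there, of which 4 were shared. The region from 304284 to 308221 scored 3.15 in replicate 1 and 2.27 in replicate 2. The difference of 0.88 was the largest among the 143 regions of chromosome 4 and the scaffolds that paired 1 to 1 between the replicates. Of the other supported regions, that from 295018 to 297999 scored 1.39 and 1.65, that from 327193 to 329378 scored 1.57 and 1.29, and that from 320001 to 322072 scored 1.45 and 1.38. The region from 23900 to 25627 was found in replicate 1 alone (1.74) and that from 312768 to 314706 in replicate 2 alone (1.53). The remaining 2, from 227229 to 228339 and from 154241 to 155241, had series scores of 2.81 and 2.05 and no support. In 3 of the 8 the series score was an exact repeat. What gave rise to regions on this scaffold was not tested.

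Between the replicates themselves, regions of chromosome 4 were recovered about as often as those of the major arms, and heterochromatin regions somewhat less. On chromosome 4, 54 of 55 regions of replicate 1 were found in replicate 2 and 55 of 57 in the other direction (97.3 ± 1.2%, SD, n = 2). In heterochromatin these were 104 of 112 and 102 of 111 (92.4 ± 0.68%), against 96.4 ± 0.38% on the major arms. The exact 95% intervals for replicate 1 were 90.3 to 99.95% on chromosome 4 and 86.4 to 96.9% in heterochromatin, which overlap. With regions required to overlap by 50% of both, recovery was 96.5% and 84.3%. Of the 20 unshared regions, 19 overlapped a region of the series list.

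Scores of regions that paired 1 to 1 were close in both replicates, in heterochromatin less often than on the major arms. On chromosome 4 the 53 pairs differed by 0.02 on average (replicate 2 minus replicate 1, SD over pairs 0.13), and 50 of them by at most 0.25. In heterochromatin the mean difference over 90 pairs was 0.0052 with an SD of 0.18. Of these pairs 77 lay within 0.25 (85.6%), against 94.3% of pairs on chromosome 4, 96.4% on the major arms and 95.8% over all sequences. On YHet, 1 of 4 pairs lay within 0.25. Spearman correlations across pairs were 0.96 on chromosome 4 and 0.97 in heterochromatin, against 0.99 on the major arms; the pairs share their libraries and are not independent. Edges were also close, with median distances of 56 bp between starts and 33 bp between ends on chromosome 4, and 37 and 44.5 bp in heterochromatin.

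**Figure D5:**
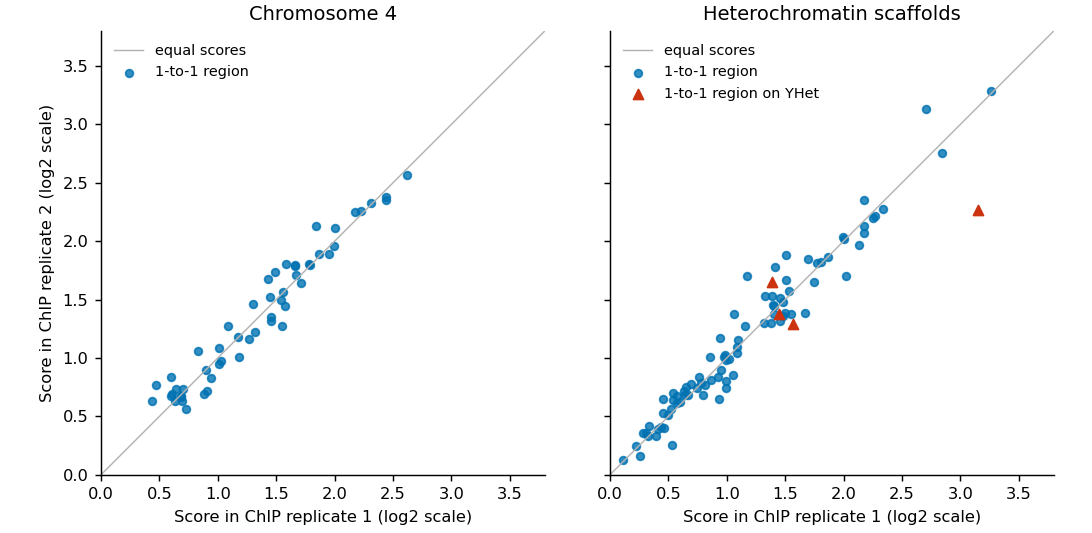
Score in ChIP replicate 2 (y axis) against ChIP replicate 1 (x axis), both on the log2 scale, for the 53 regions of chromosome 4 (left) and the 90 of the heterochromatin scaffolds (right) that paired 1 to 1; the grey line marks equal scores and red triangles mark YHet. Points lie along the line over the whole range, and the YHet region with 3.15 and 2.27 lies farthest from it.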

How the data were processed

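Fixation was in 1.8% formaldehyde (10 min) and antibody incubation lasted 15 hours, per the labels' protocols. Bowtie 0.12.7 is named in the submitters' processing notes; which caller, threshold and control were used is not given in the sources used here. The deposited lists give 1 score per region, whose log2 scale was read from the values: in the series list, 16 of 2926 pairs of repeated scores lay a log2 of 3, 5, 6, 7, 9 or 10 apart (tolerance 1e-06), and 0 a natural log or log10 of these (10 left out for log10). Coordinates are of FlyBase release 5, per the file headers. Lengths came from the headers.

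Regions were compared by overlap of at least 1 bp in Python 3.11.15 (numpy 2.4.6, pandas 2.3.3, scipy 1.17.1, matplotlib 3.10.9), checked against bedtools 2.31.1 and tested on simulated data. Intervals of shares are exact (Clopper-Pearson, 95%) and cover counting error only. The members and lists were chosen with earlier results of these data known. Named regions are the 10 highest, 5 widest, 3 lowest and 5 highest unsupported of chromosome 4, its 3 longest empty stretches and 3 tightest runs of 5, the 3 highest and the widest of each scaffold, and the 5 highest unsupported of heterochromatin. Other named regions, bins, stretches of scaffolds and the gene counts were chosen after their values were seen. Alternatives varied overlap, threshold, merging (500 bp), width, repeated scores, replicate and scaffold.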

Additional observations from a re-analysis of the deposited data

How the results depend on the processing

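Of 80 recomputed values, covering 8 results under 13 settings, 51 kept their direction and side of the threshold or moved by less than their spread. Support in both replicates (74.6% on chromosome 4) was 88.9% in the upper part of each list by score (its median or higher, called the stronger regions below); in heterochromatin (64.0%) it was 76.8% without series regions under 1301 bp and 53.0% without 3LHet. The difference between them (10.6 points) was 27.1 points among the stronger regions (Fisher's exact p = 0.0187) and 21.6 points without 3LHet (p = 0.00703). It was 3.85 points without series regions under 1301 bp (Fisher's exact p = 0.580) and 3.20 points without 2RHet (p = 0.727). Its exact p ranged from 0.00703 to 0.727. These p-values take regions as independent, which they are not, and carry no verdict. Recovery between replicates on chromosome 4 (97.3%) was 92.4% among the stronger regions and 93.5% without repeated scores. In heterochromatin (92.4%) it was 84.3% with 50% overlap of both, 83.1% among the stronger regions, 87.1% without repeated scores, 93.7% without 2RHet and 89.3% without 3LHet. For the stronger regions, and without repeated scores, the replicate lists were cut as well as the series list. A region then lost support or recovery where its match fell outside the cut, so these values do not show how well strong regions reproduce. In the full lists, all 34 regions of chromosome 4 above a score of 1 were supported in both replicates. The median score difference (0.25) turned to -0.022 among the stronger regions and was 0.026 without 3LHet. The width ratio (1.26) was 1.15 among the stronger regions, 1.21 after merging, 1.25 without repeated scores, 1.28 without 2LHet, 1.24 without 2RHet, 1.34 without 3LHet, 1.28 without 3RHet, 1.25 without XHet and 1.24 without YHet. The density ratio (3.45) was 4.36 among the stronger regions, 3.60 without repeated scores, 2.85 without 2RHet, 5.41 without 3LHet, 2.75 without 3RHet and 3.60 without XHet. The cause was not tested. With 1 replicate left out, support was 76.1% to 77.6% and 68.7% to 69.3%, its difference 7.45 to 8.28 points, the score difference 0.18 to 0.31, the width ratio 1.25 to 1.27 and the density ratio 3.37 to 3.53. No paired analysis was possible because ChIP is the one group with values here, and the inputs of like number were not analysed here. The lists give no depth, so what it limits among weak unsupported regions could not be examined.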
